A study of Notophthalmus viridescens with 12 samples.

Results

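The passage from 1 day post-lentectomy (1 dpl) to 4 days post-lentectomy (4 dpl) was examined in the dorsal iris of the eastern newt, Notophthalmus viridescens. Lentectomy is the surgical removal of the lens through a slit in the cornea. Bulk RNA sequencing was available from 12 libraries, 3 each from intact eyes, 6 h post-lentectomy (6 hpl), 1 dpl and 4 dpl, and the comparison concerned the 6 libraries of the last 2 groups. The animals were adults caught in the wild, and no allele, drug or transgene separated the groups, which differed in time since surgery. Each library was made from a pool in which the dorsal irises of both eyes of 3 or 4 newts were combined, so a value is the mean of a pool and differences among animals within it cannot be seen. The irises at 1 dpl and 4 dpl all came from operated eyes, and operated eyes without lens removal were not analysed here. Assembled transcripts with a value of 1 or more in at least 3 of these 6 libraries were compared, which took in 844978 of 856451. Of those left out, 7179 reached a value of 1 in 0 of the 6 libraries and 2428 in 2 of them, the latter with a median mean value of 1.16, against 2.46 for the 8302 transcripts just inside, at 1 or more in 3 libraries.

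Newts regrow a lens from the pigment epithelial cells of the dorsal iris. After lens removal these differentiated cells first respond to the injury, then re-enter the cell cycle, lose their pigment and turn into lens cells, whereas the ventral iris does not normally form a lens. The days between the early response and re-entry into the cell cycle are also those in which macrophages gather near the iris and the extracellular matrix of the eye is rebuilt. The iris is a mixed tissue of pigmented epithelium, stroma, muscle, vessels and blood cells. In libraries from such tissue, fewer cells of a type and less RNA per cell cannot be told apart.

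Each transcript was known by an ID made of a single digit and a running number. No gene name came with the IDs (0 were matched), so the results are described by level, size, course over time and ID, the tissue could not be checked against marker genes, and the lists of cell cycle, matrix, lens and cell type genes could not be applied. Values are a normalised abundance per transcript as deposited, and differences between groups are given on the log2(value + 1) scale, on which a difference of 1 is close to a doubling for all but the lowest transcripts.

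The 6 libraries were alike in overall level, and the groups overlapped in each summary. The median value over the transcripts compared was 8.44, 8.58 and 8.07 in 1 dpl replicates 1, 2 and 3 and 8.52, 8.66 and 8.55 in the 4 dpl replicates. Values of 1000 or more were held by 3914, 2667 and 4225 transcripts at 1 dpl and by 4192, 4129 and 4885 at 4 dpl, so that 1 dpl replicate 2 had the fewest. That library also had the lowest sum of values, 27737613, against 35804793 to 40770545 in the other 5. The paper states an approximate sequencing depth per sample. The reads behind a single library cannot be recovered from such values, so its exact depth is unknown.

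Replicates at 4 dpl resembled each other more closely than replicates at 1 dpl. Pearson's r of log2 values across the 844978 transcripts, which are not independent replicates, ranged from 0.731 to 0.764 for the 3 pairs of 1 dpl libraries, from 0.771 to 0.792 for the 3 pairs of 4 dpl libraries and from 0.676 to 0.746 for the 9 pairs across the groups. The ranges within 1 dpl and across the groups overlapped. The library of 1 dpl replicate 1 was closer to 4 dpl replicates 1 (0.743) and 2 (0.746) than to 1 dpl replicate 2 (0.731). For 1 dpl replicate 3, r with 4 dpl replicates 1 and 2 was 0.743 and 0.732. Among the 35750 transcripts whose mean over the 6 libraries reached 100, r was 0.745 to 0.815 within 1 dpl, 0.880 to 0.887 within 4 dpl and 0.660 to 0.781 across. The 4 dpl pools were thus more alike among themselves, while the range of 1 dpl again overlapped with that across the groups. Their replicates had a median SD of 0.55 at 1 dpl and 0.27 at 4 dpl on the log2 scale, so the spread at 4 dpl was the smaller.

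A small share of transcripts was called different between 1 dpl and 4 dpl, and those called rose more often than they fell. By limma with Benjamini-Hochberg adjustment, a test that shares its estimate of spread among all 12 libraries, 6087 of 844978 transcripts (0.72%) were past an adjusted p of 0.05 and are referred to as called. At 4 dpl 4297 of them (0.509% of all) were higher and 1790 (0.212%) were lower, so 70.6% of calls were rises. An unadjusted p under 0.05 was found for 102866 transcripts, 58412 higher and 44454 lower. The 3 and 3 values did not overlap in 128998 transcripts (15.3%), 73185 higher at 4 dpl (8.66%) and 55813 lower (6.61%). The changes called were large, with a median difference of 2.98 for the rises and -2.78 for the falls. The smallest rise called was 1.18 and the smallest fall -1.26, whereas 149063 transcripts, called or not, differed by 1 or more. A difference of 4 or more was found in 419 of the rises and 189 of the falls, and of 6 or more in 25 and 7. The share of 0.72% holds for the filter and scaling used here. With libraries scaled to 1000000, 89523 transcripts passed the filter and 4469 of them were called, a larger share.

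**Figure D1:**
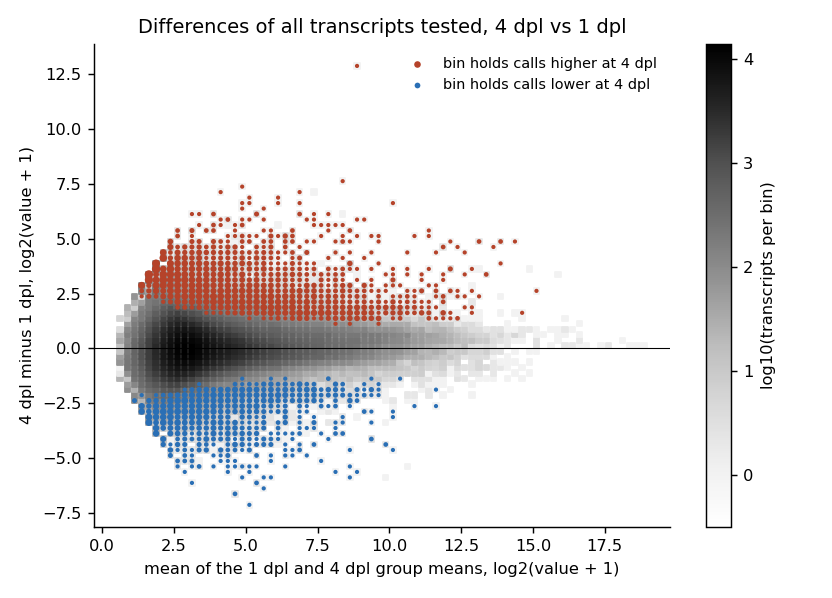
Difference between 4 dpl and 1 dpl (y axis, log2(value + 1) units) against the mean of the 2 group means (x axis, same scale) for all 844978 transcripts, in square bins shaded by the number of transcripts. Red and blue dots mark bins that hold calls higher and lower at 4 dpl, and a single rise of 12.89 stands above all others.

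When 1 library was left out, the number of calls was lowest without a library of 4 dpl. It was 2199, 2009 and 1842 without 4 dpl replicates 1, 2 and 3, and 4404, 3829 and 4332 without 1 dpl replicates 1, 2 and 3. The share of rises was 56.5% when libraries were scaled to equal totals and 57.6% when they were scaled on abundant transcripts, settings that moved the median difference of all transcripts from -0.0004 to -0.17 and -0.16.

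Transcripts with a high mean over the 6 libraries were called more often, and mostly as rises. These libraries are also those compared, so high values in a single group could lift a transcript into a class. The 976 rises with a mean of 100 or more had median values of 89.2, 70.0 and 107 in the 1 dpl libraries. At 4 dpl they had 417, 471 and 505. All transcripts with a mean of 100 or more had a median absolute difference of 0.44, against 0.47 for all transcripts compared. Such a difference also holds the spread of replicates. Their median SD was 0.55 at 1 dpl and 0.27 at 4 dpl, against 0.61 and 0.55 for all transcripts compared. Why abundant transcripts were called more often was not tested. Among 501768 transcripts whose mean over the 6 libraries was under 10, 1910 were called (0.381%), 1420 higher and 490 lower. Of 307460 with a mean from 10 to 100, 1901 were higher and 992 lower, 0.941% in all. Of 31707 with a mean from 100 to 1000, 792 were higher and 285 lower (3.4%), and of 4043 with a mean of 1000 or more, 184 were higher and 23 lower (5.12%). The median difference over all members of these classes, called or not, was -0.02, 0.01, 0.17 and 0.39, and it was positive in 71.1% of the most abundant class against 50.0% of all transcripts compared. For transcripts with a mean of 100 or more the median difference was 0.20 as deposited but -0.0043 with equal totals and 0.01 with scaling on abundant transcripts. The upward shift of this class as a whole was therefore not independent of the scaling, while its calls still held 61.1% and 62.3% rises under those settings, against 76.0% as deposited. Without 1 dpl replicate 2, the library with the lowest sum, the share was 59.9% and the median difference 0.04. The 1284 calls of this class fell to 621, 611 and 542 without 4 dpl replicates 1, 2 and 3.

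The called transcripts had different courses before 1 dpl. In the intact libraries the 4297 rising transcripts had median values of 8.69, 8.37 and 7.85. These libraries played no part in the choice of direction, but they entered the estimate of spread behind the calls. The 6 hpl libraries had medians of 6.12, 5.17 and 5.48, those of 1 dpl 3.52, 3.25 and 3.69, and those of 4 dpl 33.8, 34.0 and 34.7. The libraries of each time point thus did not overlap with those of the next, and the median of the rises was lower at 1 dpl than in the intact eye. A low value at 1 dpl and a high value at 4 dpl were part of how these transcripts were chosen, so this order is a description. The 1790 falling transcripts had medians of 6.71, 9.06 and 7.86 in intact libraries and 35.6, 23.4 and 29.8 at 6 hpl. Those of 1 dpl were 40.98, 31.0 and 33.8, and those of 4 dpl 3.84, 3.65 and 3.57. Here 6 hpl and 1 dpl overlapped and both stood above intact iris, while 4 dpl was below it.

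**Figure D2:**
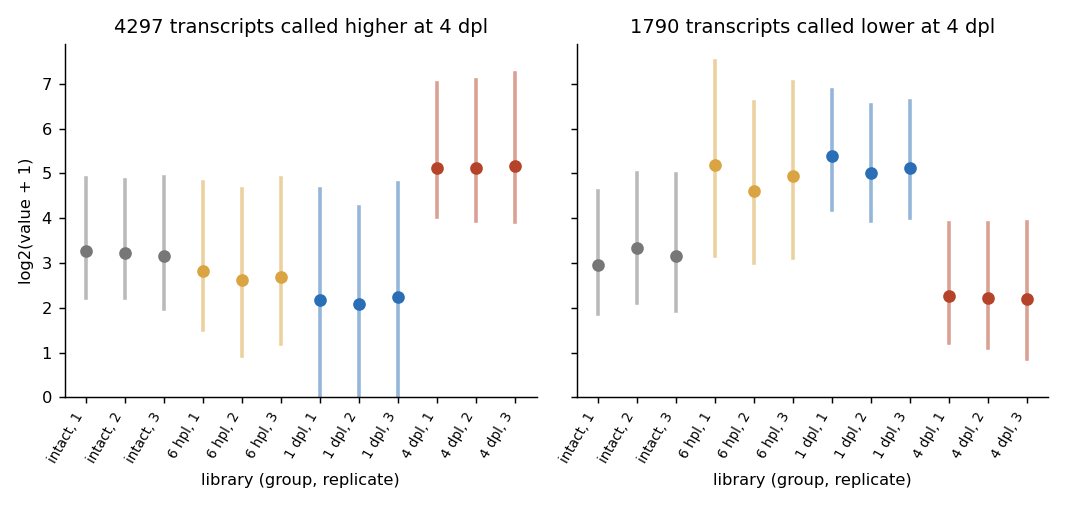
Median (points) and interquartile range (bars) of log2(value + 1) in each of the 12 libraries for the 4297 transcripts called higher and the 1790 called lower at 4 dpl against 1 dpl. The direction between 1 dpl and 4 dpl was fixed by the choice of transcripts. The intact and 6 hpl libraries did not set the direction, but they entered the estimate of spread behind the calls.

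Compared with intact iris, the same sets gave a median difference of -0.82 at 1 dpl and 1.90 at 4 dpl for the rises and of 2.09 and -0.88 for the falls. All transcripts with a positive difference between 4 dpl and 1 dpl, called or not, gave -0.17 and 0.37, those with a negative difference 0.14 and -0.37, and the rises with a mean of 100 or more 0.33 and 2.52. These comparisons share the intact libraries with each other and the 1 dpl or 4 dpl libraries with the choice of the sets. By group mean, intact iris lay below both later groups in 1360 of the rises (31.6%), between them in 2632 (61.3%) and above both in 305 (7.1%). Among all transcripts with a positive difference the shares were 40.5%, 28% and 31.5%. Of the falls, 581 (32.5%) had the intact mean below both, 901 (50.3%) between and 308 (17.2%) above. Among all transcripts with a negative difference these shares were 30.1%, 28.7% and 41.1%. At 6 hpl 96 falls (5.36%) stood below both, 882 (49.3%) between and 812 (45.4%) above. Among all with a negative difference it was 28.9%, 31% and 40.1%. The rises at 6 hpl gave 31.3%, 66.2% and 2.47%, against 36.9%, 30.1% and 33% of all with a positive difference. The highest mean of the falls was at 6 hpl in 736, at 1 dpl in 909 and in intact iris in 145. For all 422688 with a negative difference it was 118673, 172206 and 131809 in that order. The rises had their highest mean at 4 dpl in 3941, in intact iris in 290 and at 6 hpl in 66. For all 422290 with a positive difference it was 222926, 97987 and 101377. The calls were picked for a wide gap between 1 dpl and 4 dpl. The median gap was 2.98 in the rises and -2.78 in the falls, against 0.49 and -0.46 in these larger sets. Another mean lies more easily between means that are far apart, so these shares and peaks partly follow from the choice.

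Among transcripts with a mean of 100 or more, the rises started from a level close to that of intact iris, while most of the falls came down from a level well above it. The 976 such rises had a median log2 level that was 6.21 in intact, 6.45 in 6 hpl, 6.36 in 1 dpl and 8.77 in 4 dpl iris, and in 603 (61.8%) the intact mean was below both later groups, against 68% of all transcripts of that abundance with a positive difference. The 308 falls had medians of 5.52, 8.72, 8.32 and 5.79 in the same order, and the intact mean was nearer to the 4 dpl than to the 1 dpl mean in 194 of them (63%), against 36.8% of those with a negative difference. In these falls the 3 intact libraries had median values of 38.3, 49.3 and 46.0, the 6 hpl libraries 622, 299.9 and 374, the 1 dpl libraries 383, 325 and 349.9 and the 4 dpl libraries 54.1, 57.8 and 58.4. The 4 dpl values therefore lay above the intact values by a smaller step than that between 1 dpl and 4 dpl. Taken per transcript, the median difference of these falls was 1.04 between 4 dpl and intact iris and -2.44 between 4 dpl and 1 dpl.

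A comparison of 6 hpl with intact iris, which has no library in common with that of 4 dpl with 1 dpl, was set beside it to ask how the first response to surgery bore on the later change. Both were taken from the same fit and so share the estimate of spread per transcript. Of all 844978 transcripts, limma called 21209 (2.51%) in this early comparison, 16752 (1.98%) higher and 4457 (0.527%) lower at 6 hpl. Of the 1790 transcripts that fell from 1 dpl to 4 dpl, 612 (34.2%) had risen at 6 hpl and 12 (0.67%) had fallen. Of the 4297 that rose, 475 (11.1%) had fallen at 6 hpl and 83 (1.93%) had risen. Called changes at the later interval thus went more often against an early call than with it. Read the other way, 695 of the 16752 transcripts that had risen at 6 hpl were called later, 612 of them lower, and 487 of the 4457 that had fallen were called later, 475 of them higher. The remaining members of these early classes were not called, and the median later difference was -0.25 in the first class and 0.25 in the second. The later difference was positive in 36.6% of the first class and 63.0% of the second, against 50.0% of all transcripts. Over all transcripts the 2 sets of differences had an r of -0.05. Their median absolute later difference, 0.47, was below the median SD of replicates (0.61 at 1 dpl, 0.55 at 4 dpl). Such spread draws r toward 0, so r cannot tell how far the opposition reached beyond the calls.

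**Figure D3:**
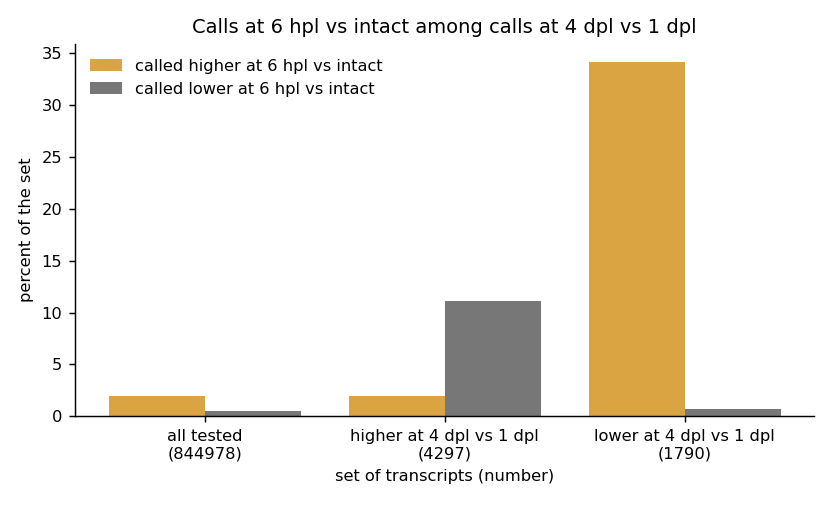
Percent of transcripts called higher (ochre) or lower (grey) at 6 hpl against intact iris, for all 844978 transcripts, for the 4297 called higher and for the 1790 called lower at 4 dpl against 1 dpl. The bars rise from 1.98% to 34.2% for early rises among later falls and from 0.527% to 11.1% for early falls among later rises.

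The share of falls with an early rise was larger at higher levels, as was that of all transcripts. Of 285 falls with a mean from 100 to 1000, 160 (56.1%) had been called higher at 6 hpl, against 4.88% of all transcripts of that class, and 13 of 23 with a mean of 1000 or more (5.37% of the class). Of the 490 falls with a mean under 10 it was 84 (17.1%, against 1.3%). The share of falls called higher at 6 hpl lay between 26.7% and 48.2% over 24 alternative settings, while that of all transcripts was between 0.925% and 3.48%. The share of rises called lower at 6 hpl was less stable, and leaving out a library gave 4.66% (intact replicate 1), 7.09% (intact replicate 2), 5.38% (6 hpl replicate 2), 5.51% (6 hpl replicate 3) and 16.8% (4 dpl replicate 3). Over all settings it ranged from 2.47% to 21.8%, where all transcripts gave 0.181% to 1.24%.

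A group of very abundant transcripts fell to a small part of its intact share after surgery and was back at 4 dpl. It was singled out after its values were seen, so its course is a description. It holds the 46 of 184 rises (25%) with a mean of 1000 or more that were also called lower at 6 hpl. Of all 4043 transcripts of that abundance, 73 (1.81%) were called lower at 6 hpl. Together these 46 held 3.65%, 2.14% and 1.95% of the summed values of the intact libraries. The share in the 6 hpl libraries was 0.920%, 0.0551% and 0.118%, in those of 1 dpl 0.0909%, 0.260% and 0.141%, and in those of 4 dpl 2.44%, 3.53% and 1.85%. Their median value was 12286, 9072 and 10616 in intact libraries and 10712, 13827 and 7674 at 4 dpl, ranges that overlapped, and between 498 and 876 at 1 dpl. At 6 hpl replicate 1 (3703) stood well above replicates 2 (292) and 3 (598), so the pools at 6 hpl differed in level. The median difference between 4 dpl and intact iris was 0.36, against 4.65 between 4 dpl and 1 dpl.

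Few transcripts crossed from a value under 1 to a value of 10 or more, or back. Under 1 in all 3 libraries of 1 dpl and at 10 or more in all 3 of 4 dpl were 172 transcripts, and the reverse held for 28. Since a value of 0 may stand for an estimate that failed, these counts concern listed values only. The 172 had a median group mean of 0 at 1 dpl and 15.5 at 4 dpl, with 74.1 as the highest, so none of them was abundant. In intact iris the median of their group means was 4.24, a value between these thresholds. Of the 172, 5 were under 1 in all intact libraries and 0 in all intact and 6 hpl libraries. At 10 or more were 10 of them in all intact libraries and 0 in all 6 hpl libraries. At 6 hpl the median was 0.866, and 37 were under 1 in all 3 libraries. The 28 lost transcripts had a median group mean of 1.30 (intact), 4.66 (6 hpl) and 22.3 (1 dpl), and 7 of them were under 1 in all intact libraries.

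The direction of change moved with the transcript ID. Reads of each condition had been assembled separately before the assemblies were merged, and how the IDs were given out was not stated in the sources used here. Transcripts with a first digit of 5 had medians of 11.8, 12.1 and 11.5 in the 1 dpl libraries and 8.49, 8.58 and 8.41 at 4 dpl, and those with digit 7 had 7.47, 7.84 and 7.39 at 1 dpl and 11.4, 11.5 and 12.2 at 4 dpl. The libraries of the groups did not overlap for digit 6 either (8.16 to 8.89 at 1 dpl, 7.78 to 8.05 at 4 dpl), nor for digit 8 (7.11 to 8.02 and 8.52 to 8.99). Digits 1 to 4 went with the earlier groups. Digit 1 had medians of 11.9 to 12.5 in intact libraries and 7.75 to 7.92 at 6 hpl, digit 2 9.18 to 10.5 and 8.24 to 8.40. Digit 3 had 7.12 to 8.04 in intact libraries and 11.4 to 11.8 at 6 hpl, digit 4 7.30 to 8.06 and 9.35 to 9.52. Of 701 calls with digit 5, 572 were falls, and of 437 with digit 6, 270. Of 1837 calls with digit 7, 1781 were rises, as were 1012 of 1093 with digit 8 and 76 of 82 with digit 9, although the median of digit 9 overlapped between the groups, at 17.6 to 20.4 and 18.8 to 21.3. Digits 7 and 8 thus held 65% of all rises and 7.65% of the falls, from 21% of the transcripts compared.

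**Figure D4:**
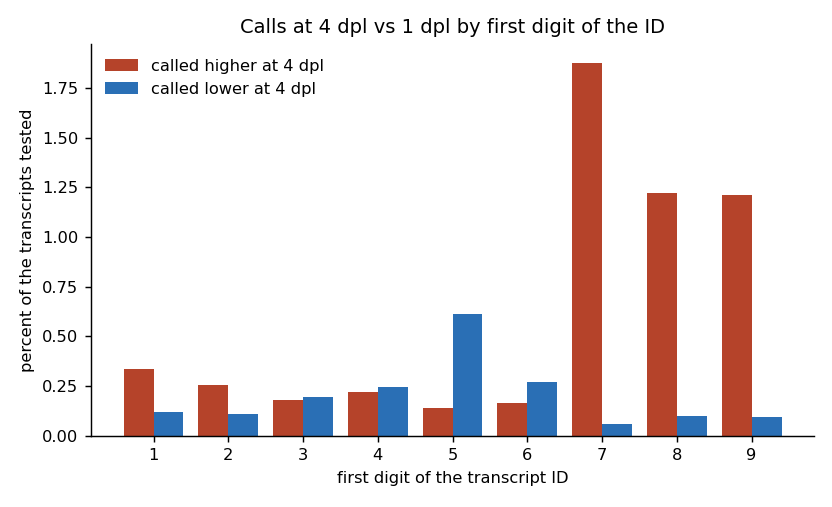
Percent of the transcripts with each first ID digit that were called higher (red) or lower (blue) at 4 dpl against 1 dpl. Rises are most frequent in digits 7, 8 and 9 and falls in digit 5.

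The 467821 transcripts with digits 1 to 4 had a median difference of -0.01, and 1132 of them were called higher and 805 lower, 58.4% rises. The digits differed, with 355 rises and 128 falls for digit 1 and 266 and 113 for digit 2, but 242 and 264 for digit 3 and 269 and 300 for digit 4. When these IDs were tested alone limma gave 694 and 490 (58.6% of 1184 calls, against 70.6% of 6087 over all IDs). The excess of rises among calls of abundant transcripts, a class set by the libraries compared, was also found in them. There were 80 rises and 11 falls among 1997 with a mean of 1000 or more, and 218 and 200 among 291440 with a mean under 10. Of the 805 falls, 340 (42.2%) had been called higher at 6 hpl, against 2.45% of all IDs with these digits. Of the 1132 rises, 191 (16.9%) had been called lower, against 0.713%. These digits were not free of the link with time, since digits 1 and 2 were highest in intact iris and digits 3 and 4 at 6 hpl. How much of the early opposition came with the digits was not tested. With digits 7 or 8, 266 of the 721 transcripts that had fallen at 6 hpl were called later (36.9%), against 1.65% of all with these digits. Of these 266 calls 265 were higher, as were 95.3% of all calls with digits 7 or 8. Of the 46 abundant transcripts described above, 20 had digits 1 to 4, 10 had 5 or 6 and 16 had 7 or 8. Of the 172 transcripts that went from under 1 at 1 dpl to 10 or more at 4 dpl, by contrast, 160 had digits 7 or 8 and 11 had digits 1 to 4.

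Transcripts with neighbouring running numbers changed together. Among 33633 pairs of compared IDs with the same first digit and consecutive numbers, the differences between 4 dpl and 1 dpl, taken from the median of their digit, had an r of 0.28, and for gaps of 2 to 5, 6 to 20 and 21 to 100 it was 0.21, 0.05 and 0.01. Where the first of a consecutive pair was called, the second was called in 61 of 339 (18%), 57 in the same direction, against 0.72% of all transcripts. For gaps of 21 to 100 it was 35 of 2044 (1.71%), though for still wider gaps, up to 1000, it was 73 of 1423 (5.13%). Several IDs may belong to a single gene, as isoforms or pieces of it that draw on the same reads, and the number of genes behind the calls is therefore lower than, or equal to, the number of transcripts.

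The 2 largest rises and the 2 largest falls were taken from 976 and 308 calls, those whose mean reached 100 and whose groups did not overlap. Other rises exceeded these falls in size. Transcript 7_56053696 was at 7999.8, 19391 and 20158 in the intact libraries and at 5714, 3.73 and 4.93 at 6 hpl. The 1 dpl libraries held 6.13, 5.59 and 1.80 and the 4 dpl libraries 33262, 51102 and 33830.4. A single 6 hpl pool thus still held it at a high level, though below all intact pools, whereas the other two and all 3 of 1 dpl were under 10. Its rise of 12.89 (SE 1.56, limma adjusted p 0.0004631) was the largest of all transcripts compared. Over the 12 libraries 22 of 35749 other transcripts with a mean of 100 or more had a profile with r of 0.95 or more to it, and 2 of the 22 had the same first digit. As the 1 dpl and 4 dpl libraries entered the match, the rise of these transcripts, by 4.26 to 6.05, came with it.

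Transcript 7_55582809 had values of 20.9, 937 and 608 in the intact libraries, and 124, 12.4 and 67.7 in those of 6 hpl. At 1 dpl the libraries held 3.29, 290.0 and 10.8, against 3952, 4211 and 8320.1 at 4 dpl. The 4 dpl values stood above all others, and 1 dpl replicate 2 was far above the other 1 dpl libraries. The rise was 7.72 (SE 1.25, limma adjusted p 0.005023), and 0 transcripts of that abundance shared its profile at an r of 0.95.

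Transcript 4_29167423 was listed at 0 in all 3 intact libraries and was at 232, 94.4 and 3.61 at 6 hpl. It reached 379, 582 and 381 in the libraries of 1 dpl and came to 4.41, 0.762 and 1.998 in those of 4 dpl. Its mean was 448 ± 116 (SD, n = 3) at 1 dpl and 2.39 ± 1.86 at 4 dpl, a fall of -7.17 (SE 0.88, limma adjusted p 0.0005148). It was thus present in operated eyes and mainly at 1 dpl, with the 6 hpl pools apart from each other.

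Transcript 2_12568543 had intact values of 17.1, 46.4 and 965 and 6 hpl values of 79.4, 6.10 and 89.9. Those of 1 dpl were 23.0, 1650.2 and 399, and those of 4 dpl 3.40, 2.42 and 0. The pools of intact iris and of 1 dpl differed among themselves by more than 10 times, yet all were above the 4 dpl values. The fall was -6.67 (SE 1.32, limma adjusted p 0.01924), and it was the least secure of these 4 transcripts, not past the threshold under 7 of 24 alternative settings. With libraries scaled to 1000000 the transcript did not pass the filter and was not tested. Its fall was past the threshold neither without 1 dpl replicates 2 (limma adjusted p 0.1024) and 3 (0.0737) nor without 4 dpl replicates 1 (0.0515), 2 (0.06274) and 3 (0.1146). The other 3 kept their direction and their call in every alternative computed for them.

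**Figure D5:**
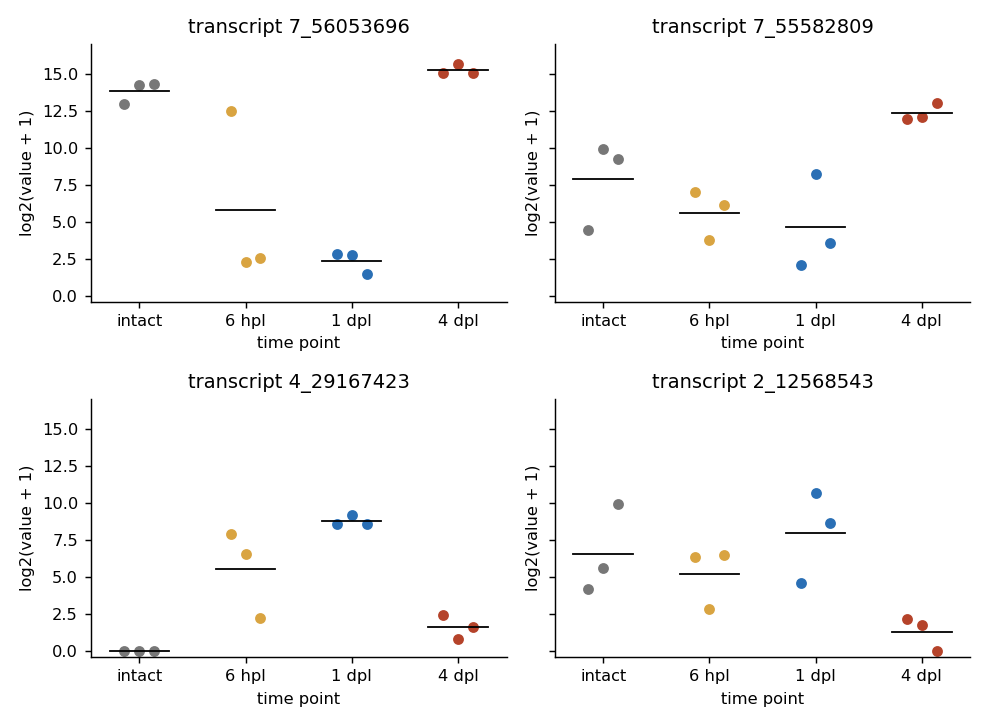
Values of 4 transcripts in the 12 libraries as log2(value + 1), with each point a library and each line a group mean. Transcripts 7_56053696 and 7_55582809 were highest at 4 dpl, transcripts 4_29167423 and 2_12568543 highest at 1 dpl by group mean.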

How the data were processed

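The authors trimmed reads with Trim Galore, removed ribosomal reads with Bowtie2, assembled each condition with Trinity, merged the assemblies with DRAP runMeta, and estimated abundance with Salmon, averaged over its inferential replicates. Of these tools no version is stated in the sources at hand. The values deposited by the authors are described as TPM but sum to 27737613 to 40770545 per library, not 1000000. A value of 1, 10 or 100 is thus a smaller part of a library than the same number of TPM. The deposited values were therefore treated as a normalised signal, not the unit assumed beforehand. How they were scaled is not stated, they keep no read depth, and the planned log-scale test still applied. The p-values measure the spread between pools of irises. Gene and marker lists needed names and were not run. Alternatives were other pseudocounts, filters, scalings and model settings, a replicate block and leaving out each library.

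Log2(value + 1) was fitted with limma 3.58.1 in R 4.3.3 (4 group means, 12 libraries, 8 residual degrees of freedom, variance trend), two-sided, with Benjamini-Hochberg adjustment over all transcripts compared. The authors' Swish test needs inferential replicates, not used here. Transcripts named were the 2 largest rises and 2 largest falls among calls with a mean of 100 or more whose groups did not overlap. An exact permutation test of 3 against 3 cannot give a p under 0.1. The fit was tested on simulated data. Members, classes and lists were chosen with earlier results of these data known.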

Additional observations from a re-analysis of the deposited data

How the results depend on the processing

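The count of calls, 6087, was within 1.5 times in 16 of 25 alternatives, and rises were the majority in all 25. It was 1837 (66.1% rises) with a pseudocount of 0.1, 11723 (76.0%) with a pseudocount of 10, 3595 with a filter at a mean of 10, 3275 (73.2%) with library weights and 1184 (58.6%) for digits 1 to 4 alone, a setting added after the data were seen. The share of rises was 56.5% with equal totals, 57.6% with scaling on abundant transcripts and 72.4% without a variance trend. Why these counts and shares differed was not tested. Fewer transcripts were tested with the filter (343239) and for digits 1 to 4 (467821). The transcripts with digits 1 to 4 held 1937 calls when all IDs were tested. With libraries scaled to 1000000, 89523 transcripts passed the filter and 4469 were called (70.6% rises). The count was thus near that of the main fit, but the share of transcripts called was larger than 0.72%. The class with a mean of 100 or more then held 831 transcripts and 91 calls, 86.8% of them rises. In that setting 2.47% of rises had been called lower at 6 hpl, against 0.837% of all transcripts. Leaving out 1 library gave between 1842 and 6135 calls and 56.6% to 81.5% rises. With 1 of the 3 pools at 4 dpl left out the direction was closest to even. For transcript 2_12568543, 1 of the settings that lost the call was a pseudocount of 0.1 and 1 the fit without a trend.

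Replicate numbers of the labels only name pools: deviations of same-numbered 1 dpl and 4 dpl libraries had an r of -0.05, 0.02 and -0.02, within or below the range for other pairs (-0.03 to 0.05). With the replicate block 5668 transcripts were called, 70.4% of them rises.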
